A study of Homo sapiens with 4 samples.

Results

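Untreated HT-29 and NCM460 cells were compared gene by gene, which describes how the pair of colon lines differed before any treatment. HT-29 is an established line from a human colorectal adenocarcinoma, and NCM460 is an established human colorectal line used in the study as its normal counterpart. The members are the HT-29 control and NCM460 control libraries, 2 of the 4 libraries of the series, and the loci measured in both. Of 18650 loci with a fragment in any library, 12691 averaged at least 1 CPM, a count scaled to library size, over the control libraries and were compared. The other libraries came from the same lines after 24 h with 100 μg/mL SCS, a chondroitin sulfate from sturgeon, and are given beside the controls as a second look at each line. All cells were grown in DMEM, but the study's methods give a larger share of fetal bovine serum for NCM460, while the labels give the same share for both, so line and serum cannot be told apart. There was 1 library per condition, so no difference here has a replicate check, no p-value is given between the controls, and intervals cover counting error only.

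The epithelium of the colon is renewed from crypt stem cells. WNT signalling maintains these cells, while transcription factors such as CDX2 and HNF4A switch on the genes of absorptive colonocytes and mucus-secreting goblet cells. Colonocytes carry a brush border built on actin-bundling proteins such as villin, and they are held together by cadherins, claudins and desmosomes over a skeleton of the simple keratins KRT8, KRT18, KRT19 and KRT20. Mesenchymal cells instead use vimentin, collagens and contractile proteins. The label of each line was checked against these markers.

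The control libraries differed in makeup. They held 1654764 fragments in HT-29 and 1347854 in NCM460, of which 35.8% and 62.3% fell on the mitochondrial genome, so 1061700 and 507692 nuclear fragments remained. At this depth the floor of 3 fragments stood at 1.47 CPM in the HT-29 control and 3.85 CPM in the NCM460 control, and a low transcript was easier to see in HT-29. The values in CPM use totals scaled by TMM factors (1.24 and 0.578 for the controls), so they carry no fixed sum per library. Over the 7533 loci that averaged 10 CPM or more, the log2 fold change of HT-29 over NCM460 went down with transcript GC content, with a Spearman rho of -0.61 taken across loci, none of which is an independent replicate. Over the SCS libraries rho was -0.20. In the fifth of loci lowest in GC content (29.4% to 41.9%) the median log2 fold change was 1.65 in the control libraries and 0.62 in the SCS libraries. In the fifth highest in GC content (59.1% to 73.9%) it was -0.90 and -0.24. Gene list results are therefore also given with this trend subtracted, and its source was not tested.

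**Figure D1:**
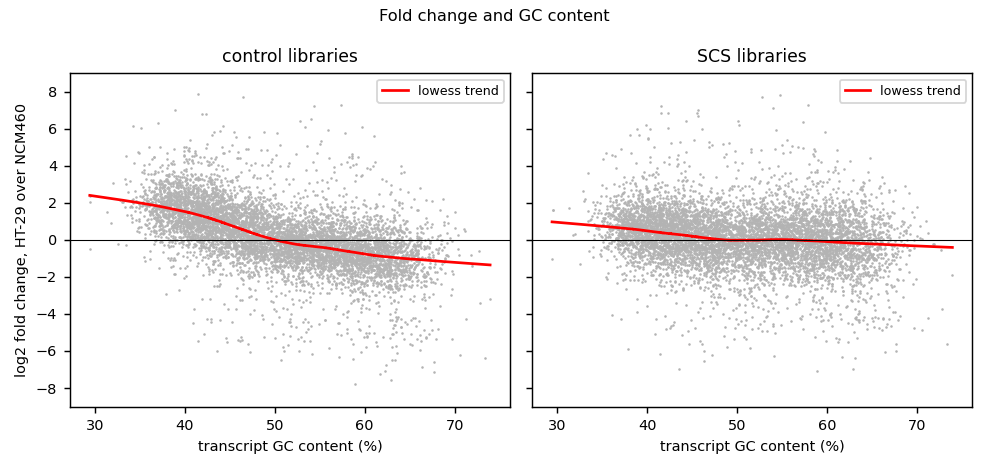
Log2 fold change of HT-29 over NCM460 (vertical axis) against transcript GC content in percent (horizontal axis) for loci that averaged 10 CPM or more, in the control libraries (left) and the SCS libraries (right), 1 point per locus, with the lowess trend as a red line. The trend falls from above 0 to below 0 in the control libraries and is flatter in the SCS libraries.

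A locus was called when the fold change was at least 2 and its 95% Clopper-Pearson counting interval excluded 0 on the log2 scale. Of the 12691 loci, 2846 (22.4%) were called higher in HT-29 and 2466 (19.4%) higher in NCM460. Among the loci compared, 840 had 0 fragments in the HT-29 control and 934 in the NCM460 control, and the level filter fixed their direction. With the GC trend subtracted, 12633 loci could be compared, and 1638 (13.0%) and 2175 (17.2%) were called. Of the 2846 loci higher in HT-29, 1200 were also called that way with the trend subtracted, as were 1565 of the 2466 higher in NCM460. In the SCS libraries, 2475 of 13050 loci (19.0%) were called higher in HT-29 and 2396 (18.4%) higher in NCM460. Counts called in the gene lists below are to be read against these shares of all loci. Lists near these shares in the controls included receptor tyrosine kinases (18.8% each way), chemokines and cytokines (22.2% each way) and ATF4 and stress response (24.0% each way). Keratins and partners of stratified epithelia were at 28.6% and 21.4%. Of the loci higher in the HT-29 control, 48.0% were also called higher in HT-29 with SCS and 75 were called the other way, while of those higher in the NCM460 control 54.1% were called the same way and 38 the other way. With the trend subtracted in the SCS libraries as well, 2045 (15.8%) and 2739 (21.1%) loci were called there, and 696 loci higher in HT-29 and 1024 higher in NCM460 were called in all 4 comparisons. The median log2 fold change over all loci compared was 0.10, or 0.02 with loci at 0 in a library set at their bound, and -0.12 with the trend subtracted. In bulk libraries a larger share of cells with a transcript and more of it per cell cannot be told apart.

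**Figure D2:**
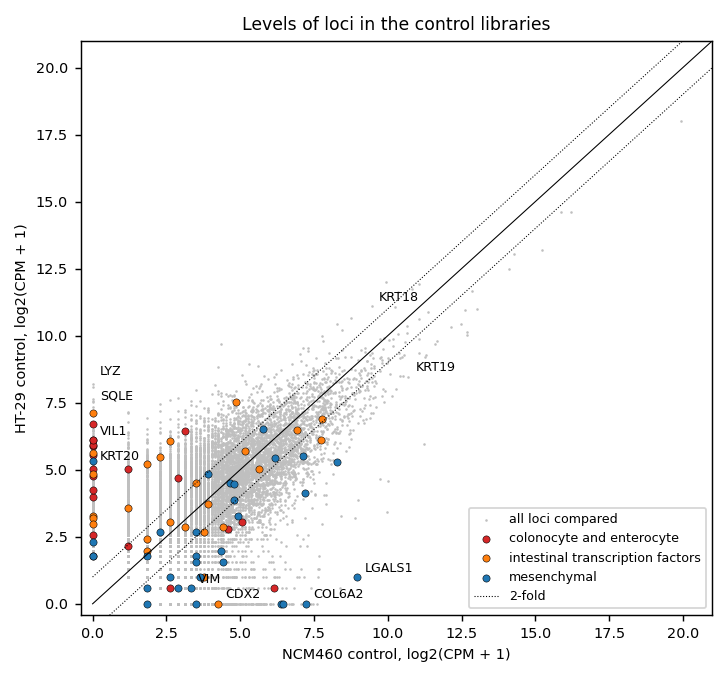
Level of each locus compared in the HT-29 control (vertical axis) and the NCM460 control (horizontal axis), both as log2(CPM + 1), with the members of 3 gene lists coloured and dotted lines at a 2-fold difference. The colonocyte genes VIL1 and KRT20 stand on the left edge, at 0 in NCM460, with LYZ and SQLE above them, and the mesenchymal genes LGALS1 and COL6A2 stand at the bottom right.

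Single genes were picked among protein-coding loci that averaged 10 CPM or more and kept their call with the GC trend subtracted. The 12 with the largest differences in favour of HT-29 had 0 or 1 fragment in the NCM460 control. Fragments are given in the order HT-29 control, HT-29 SCS, NCM460 control and NCM460 SCS, and later values in parentheses are the log2 fold change of HT-29 over NCM460 in the controls with its counting interval. LYZ, the antibacterial enzyme lysozyme, had 603, 352, 0 and 0 fragments and was at least 76.5-fold higher in the HT-29 control against the floor of 3 fragments. SQLE, which makes the epoxide that precedes lanosterol in cholesterol synthesis, had 553, 1999, 0 and 0 fragments, at least 70.2-fold higher. ALPK3, an alpha-kinase known from heart muscle, had 409, 426, 0 and 1, at least 51.9-fold. These loci were at or near 0 in both NCM460 libraries and at 409 or more in the HT-29 control. GPX2, the glutathione peroxidase of the gut epithelium, had 383, 181, 0 and 0 fragments, at least 48.6-fold higher. CLEC3A, a C-type lectin known from cartilage, had 372, 14, 0 and 0, at least 47.2-fold in the controls, and was far lower in HT-29 with SCS. The tetraspanin-like membrane proteins TM4SF1 (330, 194, 0 and 0 fragments, at least 41.9-fold) and TM4SF4 (212, 47, 0 and 0, at least 26.9-fold) were found in no NCM460 library. ALDH1A1, a retinaldehyde dehydrogenase, had 284, 54, 0 and 0 fragments, at least 36.0-fold higher, and EHF, an epithelial ETS factor, had 284, 195, 0 and 0, at least 36.0-fold. S100P, a calcium-binding protein, had 220, 645, 0 and 0 fragments, at least 27.9-fold. HIST1H1B, a replication-dependent linker histone, had 261, 31, 0 and 0, at least 33.1-fold, and histone genes have close copies between which fragments can be split. SERPINA1, the protease inhibitor alpha-1-antitrypsin, had 486, 426, 1 and 0 fragments, for a log2 value of 6.55 and a counting interval from 5.05 to 12.84. All of these were called the same way in the SCS libraries.

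The 12 with the largest differences in favour of NCM460 had 2 fragments or fewer in the HT-29 control, except for MT2A. LGALS1, a galectin abundant in mesenchymal cells, had 2, 2, 391 and 301 fragments, for a log2 value of -7.81 with a counting interval from -12.05 to -7.14. Its lowest NCM460 library was far above its highest HT-29 library. PTPRS, a receptor phosphatase that binds chondroitin and heparan sulfate chains, had 1, 0, 261 and 173 fragments, for a log2 value of -7.58 (-14.73 to -6.93). PTPRU, a receptor phosphatase of cell contacts, had 0, 0, 150 and 109 fragments and was at least 131-fold higher in NCM460. IGFBP2, which binds insulin-like growth factors, had 0, 0, 138 and 87, at least 121-fold, and ELFN2, a leucine-rich repeat membrane protein, 0, 0, 104 and 62, at least 91.1-fold. COL6A2, a chain of collagen VI, had 0, 0, 116 and 91 fragments, at least 102-fold higher. These genes were at 0 in both HT-29 libraries. FLNC, the muscle filamin that crosslinks actin, had 0, 6, 131 and 89 fragments, at least 115-fold in the controls. ANGPTL4, an inhibitor of lipoprotein lipase, had 0, 0, 86 and 53, at least 75.3-fold, and ITGA5, the alpha chain of the fibronectin receptor, 0, 0, 84 and 50, at least 73.6-fold. SEMA6B, a transmembrane semaphorin, had 1, 1, 132 and 88 fragments (-6.60, -13.75 to -5.93), and MXRA7, a matrix-remodelling associated protein, had 2, 4, 156 and 118 (-6.49, -10.74 to -5.80). MT2A, a metal-binding metallothionein, had 20, 32, 777 and 491 fragments (-6.50, -7.39 to -6.04). Each of these was called the same way in the SCS libraries. The same call with the GC trend subtracted was a condition of their selection.

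Promoters of genes on either side were read from RefSeq on GRCh38.p14, to show the sequence next to differences that turn on the line. The windows run from 250 bases before the transcription start to 50 bases after it, and 287 of 576 single protein-coding genes higher in HT-29 in all 4 comparisons and 412 of 862 higher in NCM460 had one. Their median GC content was 66.3% and 69.7%, against 66.3% for 5380 genes compared. The motif CAAAGTNCA of HNF4 factors (N is any base, both strands searched) was in 1.74% of the HT-29 windows, 0.49% of the NCM460 windows and 0.58% of the genes compared, which is 5, 2 and 31 windows. The motif AACCNGTT of GRHL factors was in 1.39%, 0.49% and 1.25%, and the GC box GGGCGG in 71.8%, 81.1% and 75.6%. Over all 22114 windows of the table, the shares of HNF4, GRHL and GC box motifs were 1.12%, 1.78% and 43.0%. A match is a description of letters and not a bound site. The 250 bases before the start are printed below for KRT20, a colonocyte gene found in HT-29 alone, and for PTPRU and COL6A2, found in NCM460 alone. Capitals mark the GC boxes in PTPRU and COL6A2. KRT20 holds none of these motifs in this stretch.
KRT20, chr17:40885243-40885492, minus strand: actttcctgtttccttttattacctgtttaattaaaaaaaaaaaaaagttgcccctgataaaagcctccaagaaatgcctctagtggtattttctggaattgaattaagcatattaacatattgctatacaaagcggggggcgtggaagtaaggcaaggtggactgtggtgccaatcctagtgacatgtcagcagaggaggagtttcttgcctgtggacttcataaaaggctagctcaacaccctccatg
PTPRU, chr1:29236272-29236521, plus strand: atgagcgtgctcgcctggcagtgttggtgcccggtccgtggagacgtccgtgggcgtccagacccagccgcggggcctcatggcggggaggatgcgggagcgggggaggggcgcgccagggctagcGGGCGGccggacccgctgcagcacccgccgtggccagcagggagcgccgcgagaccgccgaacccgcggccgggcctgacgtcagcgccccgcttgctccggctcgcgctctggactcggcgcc
COL6A2, chr21:46097862-46098111, plus strand: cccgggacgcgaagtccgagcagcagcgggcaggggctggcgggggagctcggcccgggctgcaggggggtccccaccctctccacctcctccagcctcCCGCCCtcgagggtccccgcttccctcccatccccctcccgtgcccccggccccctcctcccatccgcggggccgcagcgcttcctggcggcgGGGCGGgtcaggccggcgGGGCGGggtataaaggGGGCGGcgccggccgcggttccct
The whole window of KRT20 had a GC content of 44.0%, and those of PTPRU and COL6A2 78.7% and 79.3%.

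Some loci were found in 1 line only at this depth. Of the loci called higher in HT-29, 453 had 0 fragments in the NCM460 control, and 187 of them had 0 in NCM460 with SCS too. Of those called higher in NCM460, 564 had 0 fragments in the HT-29 control, and 408 of them had 0 in HT-29 with SCS. With 50 fragments or more in the control of 1 line and 0 in both libraries of the other, there were 55 loci for HT-29 and 12 for NCM460, and the HT-29 libraries were the deeper ones in nuclear fragments.

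Transcription factors of the intestine were split between the lines. The level filter fixed the direction of 6 members with 0 fragments in the NCM460 control and 1 with 0 in the HT-29 control. Of 26 loci compared from this list, 11 were called higher in HT-29 and 4 in NCM460, and the median log2 fold change was 0.56. After subtraction of the GC trend these counts were 11 and 4 and the median 0.90, and in the SCS libraries they were 7 and 5 of 26, with a median of 0.54. PROX1, which marks enteroendocrine cells and is a WNT target in colorectal tumours, had 57, 97, 0 and 0 fragments, at least 7.23-fold higher in the HT-29 control, and KLF5, a factor of proliferating crypt cells, had 376, 519, 22 and 37 (2.65, 2.08 to 3.39). HNF4A, a master factor of enterocytes and hepatocytes, had 18, 7, 0 and 2 fragments, at least 2.28-fold higher in the controls, but it was not called in the SCS libraries (0.42). CDX2, the factor that specifies the intestine, went the other way, with 0, 0, 14 and 12 fragments, at least 12.3-fold higher in NCM460, and it was found in neither HT-29 library. TCF7L2, the DNA-binding partner of beta-catenin, had 140, 91, 164 and 177 (-1.60, -1.96 to -1.29). SOX9, a factor of crypt progenitors, had 238, 98, 170 and 186 fragments and was not called in the controls (-0.90, -1.20 to -0.61), but was called higher in NCM460 in the SCS libraries (-2.04). The table lists CDX1, ATOH1, ISX, NR1H4, NR1I2 and ASCL2 at 0 in all 4 libraries.

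Most genes of differentiated colonocytes that were compared were called higher in HT-29, but 12 of the 20 had 0 fragments in the NCM460 control. Those loci passed the level filter only through HT-29, so their direction was fixed by the filter. Of 20 loci compared, 13 were called higher in HT-29 and 4 in NCM460, and the median log2 fold change was 3.67 (2.49 with loci at 0 set at their bound). The counts became 14 and 3 with the trend subtracted (median 3.58) and 15 and 4 of 19 in the SCS libraries (median 3.53). All 13 loci higher in HT-29 were called the same way with the GC trend subtracted and in the SCS libraries, and 8 had 0 fragments in both NCM460 libraries. VIL1, which encodes villin, had 138, 24, 0 and 0 fragments, at least 17.5-fold higher in the HT-29 control. LGALS4, a galectin of apical delivery, had 138, 464, 0 and 0, at least 17.5-fold, and KRT20, the keratin of the upper crypt, 119, 306, 0 and 0, at least 15.1-fold. TSPAN1, a tetraspanin, had 176, 191, 6 and 7 fragments (3.28, 2.33 to 4.95). The exceptions were ESPN, an actin bundler of microvilli also used by sensory hair cells, with 1, 1, 55 and 48 (-5.36, -12.50 to -4.64), MUC3A, a membrane mucin, with 15, 7, 25 and 23 (-1.96, -3.16 to -1.15), CA2, a carbonic anhydrase, with 12, 34, 18 and 33 (-1.77, -3.17 to -0.84), and MUC12, which had 1 and 4 fragments in the controls. Of the 54 genes listed, 26 were at 0 in all 4 libraries, among them FABP1, CA4, SLC26A3, AQP8 and GUCA2A, and CDH17, the cadherin of intestinal epithelium, had 1 fragment in the HT-29 control and 0 elsewhere. Part of the colonocyte markers were present in HT-29, and 8 of those were at 0 in NCM460, the line labelled as normal colorectal cells.

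Goblet and other secretory genes were scarce in both lines. Among those compared, 7 had 0 fragments in the NCM460 control, so the level filter fixed their direction. Of 11 loci compared, 5 were called higher in HT-29 and 2 in NCM460, and the median log2 fold change was 2.03 (0.02 with loci at 0 set at their bound). Subtracting the GC trend gave 4 and 1 calls and a median of 2.02, while the SCS libraries gave 6 and 1 of 10 and a median of 3.06. Beside LYZ, CREB3L1, a membrane-bound factor of secretory cells, had 123, 97, 0 and 1 fragments, at least 15.6-fold higher in HT-29, and AGR2, a disulfide isomerase needed for mucin folding, had 45, 462, 0 and 0, at least 5.71-fold. MUC1, whose locus is merged with KRTCAP2, had 32, 79, 37 and 33 fragments and was higher in NCM460 in the controls (-1.53, -2.33 to -0.88) but not in the SCS libraries (0.10). MUC2 and TFF3, the defining goblet products, were at 0 in all 4 libraries.

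All 49 loci of the epithelial adhesion list could be compared, of which 2 had no fragment in the NCM460 control. Of these 49, 16 were called higher in HT-29 and 5 in NCM460, and the median log2 fold change was 0.71. With SCS, 19 and 3 of 49 were called (median 0.81), and with the trend subtracted in the controls 17 and 4 were (median 0.69). CDH1, which encodes E-cadherin, had 267, 526, 96 and 99 fragments, which gave 0.08 (-0.26 to 0.43) in the controls, against 1.25 in the SCS libraries. EPCAM, an epithelial surface adhesion molecule, had 492, 605, 36 and 126 (2.35, 1.89 to 2.91). CLDN2, a claudin that forms cation and water channels, had 222, 2, 1 and 2 fragments. It was higher in the HT-29 control (5.43, 3.91 to 11.71) and at 2 fragments or fewer in the other 3 libraries, and the SCS libraries gave -0.57. CDH3, which encodes P-cadherin and is a protein of basal and placental epithelia, had 3, 1, 153 and 139 fragments and was higher in NCM460 (-6.18, -9.36 to -5.49).

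The simple keratins KRT8, KRT18 and KRT19 were abundant in both lines but in other proportions, while KRT20 had no fragment in NCM460. KRT8 had 7024, 3518, 1406 and 1117 fragments, for a log2 value of 0.93 (0.84 to 1.01), just under the fold needed for a call, and was called with the GC trend subtracted (1.23). KRT18, its partner, had 4453, 2676, 548 and 372 (1.63, 1.501 to 1.76), on a locus merged with a non-coding gene. KRT19, which lacks a tail domain and can stand in for other type I keratins, went the other way, with 720, 375, 1285 and 1150 (-2.23, -2.36 to -2.10). Keratins and partners of stratified epithelia gave 14 loci compared, and 4 were called higher in HT-29 and 3 in NCM460, and the median log2 fold change was 0.83 (0.40 with loci at 0 set at their bound). GC-subtracted calls numbered 7 and 3 (median 1.18), and calls in the SCS libraries 6 and 2 of 14 (median 0.94). COL17A1, a hemidesmosomal collagen, had 158, 138, 0 and 1 fragments, at least 20.05-fold higher in HT-29, and KRT80 had 168, 165, 6 and 1 (3.22, 2.26 to 4.88). SFN, the epithelial 14-3-3 sigma, had 74, 228, 130 and 113 and was higher in the NCM460 control (-2.17, -2.64 to -1.78) and not called in the SCS libraries (-0.14). KRT5, KRT14 and TP63, which define basal squamous cells, were at 0 in all 4 libraries.

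**Figure D3:**
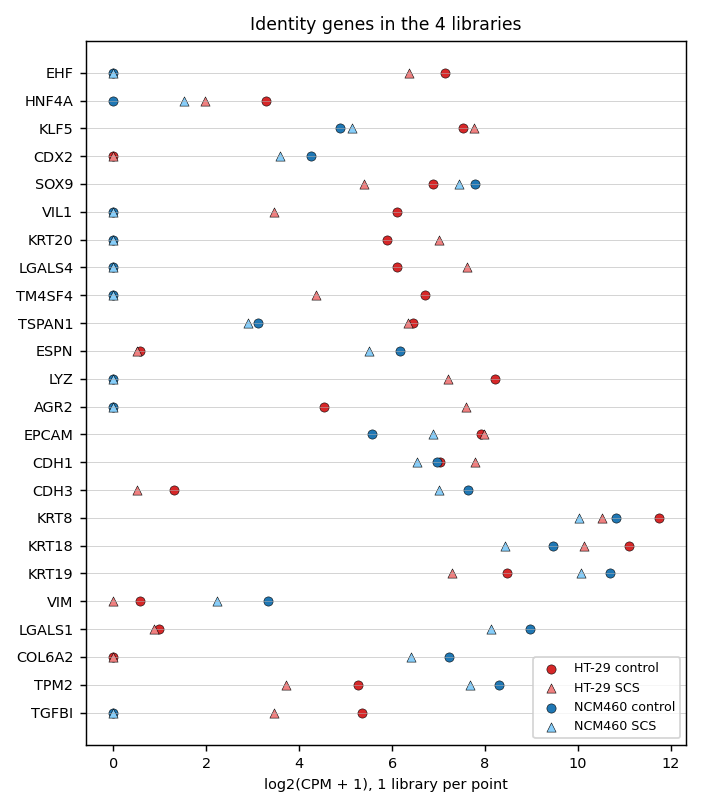
Level of 24 identity genes in the 4 libraries as log2(CPM + 1), 1 point per library, with circles for controls, triangles for SCS, red for HT-29 and blue for NCM460. VIL1, KRT20, LGALS4, TM4SF4 and LYZ are at 0 in both NCM460 libraries, CDX2 and COL6A2 are at 0 in both HT-29 libraries, and CDH1 lies close together in the controls.

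Mesenchymal genes leaned to NCM460, except that their median turned to 0.17 when the trend on mean expression was subtracted. That setting put the median of all loci at 0.78. Of 31 loci compared, 1 was called higher in HT-29 and 16 in NCM460, and the median log2 fold change was -1.60 (-1.58 with loci at 0 set at their bound). The HT-29 control had 0 fragments for 5 of these loci and the NCM460 control for 3, so the level filter fixed their direction. Calls with the trend subtracted were 4 and 14, at a median of -1.61, and those in the SCS libraries 2 and 18 of 31, at a median of -1.97. VIM, which encodes vimentin, was low in every library, with 1, 0, 7 and 4 fragments (-2.54, -9.70 to -1.24). CDH2, TWIST1, COL1A2 and COL3A1 were at 0 in all 4 libraries, so defining markers of mesenchymal cells had no fragment in NCM460 while other members of the list did. TPM2, a tropomyosin, had 77, 29, 243 and 221 fragments (-3.01, -3.44 to -2.68), and COL6A1, a chain of collagen VI like COL6A2, had 0, 5, 68 and 51, at least 59.5-fold higher in the NCM460 control. TIMP1, an inhibitor of matrix metalloproteases, had 92, 122, 107 and 70 (-1.58, -2.03 to -1.20) but missed the call once the GC trend was subtracted (-0.98). TGFBI, a matrix protein induced by TGF-beta, was the 1 member called higher in HT-29, with 81, 24, 0 and 0 fragments, at least 10.3-fold. Of the 18 integrin and laminin loci, 10 were called higher in HT-29 and 5 in NCM460, and the median log2 fold change was 1.31. After subtraction of the GC trend these counts were 9 and 3 and the median 1.20, and in the SCS libraries they were 7 and 1 of 20, with a median of 0.67. ITGB1, the shared beta chain, had 730, 1054, 43 and 234 (2.66, 2.25 to 3.17), and ITGB6, the beta chain of an epithelial integrin that activates TGF-beta, had 82, 129, 0 and 0, at least 10.4-fold higher in HT-29. ITGA2, the collagen receptor chain, had 305, 127, 11 and 38 (3.29, 2.54 to 4.42), and LAMB2, a laminin chain, had 60, 98, 81 and 61 and was higher in NCM460 (-1.78, -2.33 to -1.33), though not with the trend subtracted (-0.996). In the SCS libraries ITGA2 (0.57), LAMB2 (-0.46) and TIMP1 (-0.34) were not called.

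Markers of other cell types were few. Of 6 endothelial loci compared, 0 were called higher in HT-29 and 4 in NCM460, and the median log2 fold change was -1.79. The counts became 1 and 5 with the trend subtracted (median -2.33) and 1 and 2 of 4 in the SCS libraries (median -0.43). EGFL7 had 1, 0, 37 and 22 fragments (-4.79, -11.95 to -4.04), while the defining markers PECAM1 and CDH5 had no fragment in the NCM460 control. The highest blood cell marker was CD68, a lysosomal protein of macrophages that other cells also make, and it was not called. Of 6 blood cell loci, 0 were called higher in HT-29 and 2 in NCM460, and the median log2 fold change was -1.08. Subtracting the GC trend gave 0 and 2 calls and a median of -0.60, while the SCS libraries gave 1 and 2 of 5 and a median of -0.89. LYN, a SRC family kinase, had 5, 3, 13 and 35 (-2.27, -4.61 to -1.19), and PTPRC and CD3E were at 0 throughout. Of 3 neural loci, 0 were called higher in HT-29 and 2 in NCM460, and the median log2 fold change was -2.11. With SCS, 1 and 1 of 3 were called (median -0.77), and with the trend subtracted in the controls 0 and 2 were (median -1.09). TUBB3, the neuronal beta-tubulin, is merged with TCF25 and had 105, 191, 300 and 186 (-2.88, -3.24 to -2.58), so its own level is uncertain, and SNAP25 and RBFOX3 were at 0. Of 3 hepatic loci, 2 were called higher in HT-29 and 1 in NCM460, and the median log2 fold change was 4.10 (2.41 with loci at 0 set at their bound). GC-subtracted calls numbered 2 and 0 (median 2.96), and calls in the SCS libraries 2 and 0 of 2 (median 5.51). Those higher in HT-29 were SERPINA1 and APOH, a plasma glycoprotein, with 42, 42, 0 and 0 fragments, at least 5.33-fold higher in HT-29, while ALB and AFP were at 0.

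HOX genes record the position of a tissue along the body axis. Of 15 loci compared from the HOX A and B clusters, 8 were called higher in HT-29 and 2 in NCM460, and the median log2 fold change was 1.84 (1.32 with loci at 0 set at their bound). Calls with the trend subtracted were 8 and 0, at a median of 1.98, and those in the SCS libraries 8 and 2 of 14, at a median of 1.86. A locus of the B cluster that merges HOXB3, HOXB4 and HOXB6 had 233, 184, 10 and 7 fragments (3.03, 2.24 to 4.23). Of 4 loci of the HOX C and D clusters, 0 were called higher in HT-29 and 2 in NCM460, and the median log2 fold change was -1.53 (-1.22 with loci at 0 set at their bound). After subtraction of the GC trend these counts were 0 and 1 and the median -0.91, and in the SCS libraries they were 0 and 0 of 2, with a median of -1.23. The merged locus that holds HOXC6 had 16, 7, 10 and 9 and was not called (-0.63, -1.94 to 0.59). Of the cancer-testis list, 3 loci passed the level filter, and only through NCM460, so their direction was fixed by the filter and is no result about the list. MAGEB2 had 0, 0, 43 and 66 fragments, at least 37.7-fold higher in NCM460, MAGEA3 0, 0, 25 and 36, at least 21.9-fold, and PRAME 0, 0, 18 and 22, at least 15.8-fold. MAGEA genes have near-identical copies, so the share of each is uncertain, while 24 other genes of the list were at 0 in all 4 libraries and MAGEC2, DDX43 and CSAG1 had 1 or 2 fragments in HT-29 alone. A further locus, which merges the embryonic and fetal globins HBE1, HBG1 and HBG2, had 0, 1, 49 and 104 fragments, and it was picked out after its values were seen.

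WNT feedback and crypt genes were divided, and their median below turned to 0.49 with scaling by total fragments. Of 25 loci compared, 4 were called higher in HT-29 and 10 in NCM460, and the median log2 fold change was -0.49. The counts became 3 and 10 with the trend subtracted (median -0.79) and 2 and 14 of 24 in the SCS libraries (median -1.895). AXIN2, the scaffold that limits WNT signalling, lies on a merged locus with 90, 41, 6 and 12 fragments and was higher in HT-29 (2.33, 1.33 to 3.997), but was not called in the SCS libraries (0.57). DKK1, a secreted WNT inhibitor, had 2, 3, 111 and 344 and was higher in NCM460 (-6.00, -10.25 to -5.30), as were BAMBI, a pseudoreceptor of the TGF-beta family (0, 0, 24 and 33 fragments, at least 21.02-fold), and EPHB2, a receptor that positions crypt cells (2, 2, 34 and 28, -4.32, -8.58 to -3.52). MYC had 278, 197, 316 and 389 fragments (-1.57, -1.82 to -1.34). LGR4, an R-spondin receptor, had 33, 21, 4 and 37 fragments and was higher in HT-29 in the controls (1.44, 0.16 to 3.61), was at 0.17 with the GC trend subtracted, and was higher in NCM460 in the SCS libraries (-1.83). Of 32 loci of receptor tyrosine kinases and their ligands, 6 were called higher in HT-29 and 6 in NCM460, and the median log2 fold change was -0.40. Subtracting the GC trend gave 3 and 6 calls and a median of 0.08, while the SCS libraries gave 6 and 8 of 33 and a median of -0.45. MET, the receptor of hepatocyte growth factor, had 680, 741, 47 and 107 (2.44, 2.03 to 2.92). EREG, a ligand of the EGF receptor, had 371, 771, 53 and 137 (1.40, 0.996 to 1.86), a value that changed sign with the GC trend subtracted (-0.51). FGFR1 (23, 19, 61 and 53 fragments, -2.67, -3.56 to -2.09) and FGFR4 (18, 3, 43 and 58, -2.49, -3.53 to -1.82), receptors of fibroblast growth factors, were higher in NCM460. ERBB3, on a locus merged with PA2G4, had 502, 389, 196 and 245 and was not called (-0.04, -0.28 to 0.21).

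With scaling by total fragments the medians of the next list and of the receptor list above turned to 0.48 and 0.64. The median of all loci stood at 1.12 under that scaling. Among 25 immediate early genes and MAP kinase phosphatases, 4 were called higher in HT-29 and 9 in NCM460, and the median log2 fold change was -0.60. With SCS, 6 and 8 of 24 were called (median -0.50), and with the trend subtracted in the controls 3 and 7 were (median -0.46). FOSB had 1453, 175, 272 and 103 fragments (1.02, 0.84 to 1.22) and EGR1 677, 149, 321 and 249 (-0.32, -0.51 to -0.12), both of them transcription factors made within minutes of a stimulus. IER3, an early response gene that affects survival, had 281, 291, 542 and 441 (-2.33, -2.55 to -2.13), and DUSP4, a nuclear MAP kinase phosphatase, 40, 28, 66 and 82 (-2.05, -2.72 to -1.53), both higher in NCM460. FOSB was not called in the SCS libraries (-0.38), where EGR1, not called in the controls, was called higher in NCM460 (-1.87).

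A few single genes that respond to cell stress are given by their values and stand for no group. CDKN1A, the CDK inhibitor p21, had 25, 279, 187 and 246 (-4.16, -4.96 to -3.69), its HT-29 control was far below the other 3 libraries, and it was not called in the SCS libraries (-0.96). GDF15, a stress-induced cytokine, had 144, 1355, 332 and 372 (-2.58, -2.89 to -2.31) and was not called in the SCS libraries (0.71). FDXR, a mitochondrial electron donor, had 13, 11, 37 and 63 (-2.68, -3.94 to -1.96). A list of ATF4 and stress response genes gave 25 loci, and 6 were called higher in HT-29 and 6 in NCM460, and the median log2 fold change was -0.21. GC-subtracted calls numbered 4 and 5 (median 0.04), and calls in the SCS libraries 18 and 2 of 27 (median 1.77). XBP1, the factor of the unfolded protein response, had 319, 860, 21 and 27 (2.48, 1.895 to 3.24), and HSPA5, the chaperone BiP, 855, 4829, 140 and 473 (1.21, 0.96 to 1.49). STC2, a stanniocalcin, had 0, 0, 35 and 37, at least 30.6-fold higher in NCM460, and DDIT4, an inhibitor of mTORC1, 22, 242, 134 and 119 (-3.85, -4.72 to -3.34), though it was not called in the SCS libraries (-0.13). HSPA5 was not called once the trend was subtracted (0.59).

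Interferon-stimulated genes leaned to HT-29 by loci called, at 39.3% against 22.4% of all loci. Their summed level was 844 CPM in the HT-29 control and 872 CPM in the NCM460 control. Among those compared, 9 had 0 fragments in the NCM460 control. These passed the level filter only through HT-29, so their direction was fixed by it. Of 28 loci compared, 11 were called higher in HT-29 and 2 in NCM460, and the median log2 fold change was 1.61 (0.66 with loci at 0 set at their bound). Calls with the trend subtracted were 10 and 2, at a median of 1.06, and those in the SCS libraries 22 and 2 of 31, at a median of 2.41. OAS3 (213, 320, 25 and 26 fragments, 1.66, 1.10 to 2.36) and OAS1 (33, 157, 0 and 3, at least 4.19-fold) encode sensors of double-stranded RNA, and BST2, which tethers enveloped viruses, had 86, 93, 1 and 0 (4.08, 2.52 to 10.35). IFITM3, which blocks virus entry, went the other way, with 18, 37, 266 and 182 fragments (-5.09, -6.06 to -4.59). Antigen presentation genes gave 20 loci, and 6 were called higher in HT-29 and 2 in NCM460, and the median log2 fold change was 0.33 (0.15 with loci at 0 set at their bound). After subtraction of the GC trend these counts were 3 and 2 and the median 0.45, and in the SCS libraries they were 11 and 1 of 19, with a median of 1.139. The merged HLA-B and HLA-C locus had 82, 159, 218 and 211 (-2.77, -3.19 to -2.43), and reads of such polymorphic genes can be lost in mapping. The peptide transporter TAP1 had 13, 59, 30 and 37 (-2.38, -3.66 to -1.62), and both were higher in the NCM460 control, but TAP1 was not called in the SCS libraries (-0.46). The peptidase ERAP2 (69, 56, 0 and 1, at least 8.76-fold) and the immunoproteasome subunit PSMB8 (24, 51, 0 and 1, at least 3.04-fold) were higher in HT-29. Of 9 chemokine and cytokine loci, 2 were called higher in HT-29 and 2 in NCM460, and the median log2 fold change was -0.04. The counts became 1 and 2 with the trend subtracted (median 0.24) and 5 and 2 of 11 in the SCS libraries (median 1.81). LIF had 106, 88, 19 and 23 (1.05, 0.37 to 1.87) and CXCL16 15, 9, 48 and 22 (-2.87, -4.01 to -2.21), and LIF was not called in the SCS libraries (0.75).

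Enzymes of drug and aldehyde metabolism differed in both directions. Of 32 loci compared, 15 were called higher in HT-29 and 9 in NCM460, and the median log2 fold change was 0.69. Subtracting the GC trend gave 13 and 8 calls and a median of -0.02, while the SCS libraries gave 13 and 7 of 33 and a median of 0.31. The merged locus of the aldo-keto reductases AKR1C1 and AKR1C3 had 159, 1128, 1 and 3 fragments (4.95, 3.42 to 11.23), and ABCC3, an exporter of conjugates, 642, 809, 27 and 29 (3.13, 2.62 to 3.79). AKR1B1, the aldose reductase, had 0, 3, 30 and 37, at least 26.3-fold higher in NCM460, and CYP24A1, which degrades active vitamin D, 1, 0, 57 and 60 (-5.41, -12.55 to -4.69). GSTP1, a glutathione transferase, had 418, 240, 454 and 419 (-1.51, -1.71 to -1.32) and missed the call once the trend was subtracted (-0.53), and NQO1, a quinone reductase, 576, 667, 158 and 237 (0.47, 0.22 to 0.74). Of 25 antioxidant and NRF2 target loci, 10 were called higher in HT-29 and 7 in NCM460, and the median log2 fold change was 0.37. With SCS, 11 and 5 of 25 were called (median 0.70), and with the trend subtracted in the controls 7 and 4 were (median 0.23). SLC7A11, the cystine transporter, had 159, 1007, 4 and 16 (3.62, 2.54 to 5.81), and TXNRD1, the cytosolic thioredoxin reductase, 782, 2770, 57 and 311 (2.37, 1.996 to 2.80). PRDX2, a peroxiredoxin, had 60, 31, 158 and 120 (-2.74, -3.24 to -2.35).

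Most loci of the glycolysis and hypoxia list were called higher in NCM460. Of 34 loci compared, 2 were called higher in HT-29 and 21 in NCM460, and the median log2 fold change was -1.51. GC-subtracted calls numbered 3 and 24 (median -1.37), and calls in the SCS libraries 3 and 18 of 34 (median -1.05). GAPDH had 2129, 1734, 5101 and 3491 fragments (-2.65, -2.73 to -2.58) and ENO1, an enolase, 1673, 723, 2399 and 1563 (-1.91, -2.004 to -1.82). PKM, a pyruvate kinase, had 3248, 1130, 1676 and 1004 and was not called (-0.44, -0.52 to -0.35). The hypoxia-inducible NDRG1 had 50, 656, 663 and 415 (-5.05, -5.57 to -4.71), its HT-29 control was far below the other 3 libraries, and it was not called in the SCS libraries (-0.49). BNIP3, which directs mitochondria to autophagy, had 2, 4, 22 and 20 (-3.72, -7.99 to -2.83). CA12, a surface carbonic anhydrase, went the other way, with 281, 392, 1 and 1 (5.76, 4.25 to 12.05).

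Cholesterol synthesis genes leaned to HT-29. Of 26 loci compared, 11 were called higher in HT-29 and 3 in NCM460, and the median log2 fold change was 0.67. Calls with the trend subtracted were 8 and 1, at a median of 0.61, and those in the SCS libraries 20 and 0 of 26, at a median of 1.63. Beside SQLE, IDI1 had 145, 640, 1 and 41 fragments (4.82, 3.29 to 11.10), and HMGCS1, which commits acetyl units to the pathway, 335, 1564, 8 and 113 (3.84, 2.999 to 5.22). SQLE was the 1 member called higher in HT-29 with 0 fragments in both NCM460 libraries. Among the other members named here, IDI1 had 1 fragment in the NCM460 control and HMGCS1 had 8.

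Transcripts for translation and respiration leaned to NCM460 under the main scaling, a direction that turned when libraries were scaled by total fragments alone, which moved the median of all loci by 1.02 and put the ribosomal and respiratory medians at 0.66 and 0.60. Of 78 loci of cytosolic ribosomal proteins, 4 were called higher in HT-29 and 21 in NCM460, and the median log2 fold change was -0.43. These calls were 5.1% and 26.9% of the list, against 22.4% and 19.4% of all loci compared. After subtraction of the GC trend these counts were 2 and 25 and the median -0.63, and in the SCS libraries they were 0 and 18 of 78, with a median of -0.67. RPS2 (2599, 2810, 3535 and 3873 fragments, -1.84, -1.91 to -1.76) and RPL8 (1278, 1513, 1976 and 1742, -2.02, -2.12 to -1.92) were among the highest, RPS28 had 115, 199, 318 and 278 (-2.83, -3.18 to -2.55), and RPL23 was higher in HT-29, with 1176, 1486, 147 and 413 (1.60, 1.36 to 1.86). RPL23 was called neither with the trend subtracted (0.64) nor in the SCS libraries (0.69), and RPS2 missed the call with the trend subtracted (-0.92). Ribosomal protein genes have many processed copies, so fragments can be split among them. Of 72 nuclear-encoded respiratory chain loci, 5 were called higher in HT-29 and 19 in NCM460 (6.9% and 26.4%), and the median log2 fold change was -0.47. The counts became 2 and 23 with the trend subtracted (median -0.62) and 0 and 30 of 72 in the SCS libraries (median -0.87). ATP5B (508, 353, 495 and 520, -1.35, -1.54 to -1.18) and ATP5D (44, 40, 139 and 101, -2.98, -3.58 to -2.55) encode subunits of the ATP synthase, and UQCRC1 (86, 90, 175 and 166, -2.38, -2.81 to -2.04) a subunit of complex III. The 15 mitochondrial genes that were listed fell on 4 merged loci, and 0 were called higher in HT-29 and 4 in NCM460, and the median log2 fold change was -1.81. Subtracting the GC trend gave 0 and 4 calls and a median of -2.57, while the SCS libraries gave 0 and 4 of 4 and a median of -2.11. The locus with MT-ND1, MT-ND2 and both ribosomal RNAs had 536135, 180026, 773608 and 489597 fragments (-1.92, -1.93 to -1.92), and the locus with MT-CYB 4172, 2466, 6542 and 3827 (-2.04, -2.10 to -1.99). Outside this list, loci of the class mitochondrial tRNA held 157, 238, 7 and 10 fragments, and the 1 compared was called higher in HT-29. More mitochondrial and less nuclear RNA cannot be told apart here, and the source of the difference was not tested.

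Cell cycle genes did not keep their direction. Of 48 S phase loci, 12 were called higher in HT-29 and 5 in NCM460, and the median log2 fold change was 0.16. With SCS, 0 and 36 of 47 were called (median -1.73), and with the trend subtracted in the controls 9 and 3 were (median 0.004). Of 49 G2 and M phase loci, 18 were called higher in HT-29 and 5 in NCM460, and the median log2 fold change was 0.79. GC-subtracted calls numbered 1 and 9 (median -0.17), and calls in the SCS libraries 0 and 29 of 49 (median -1.17). MKI67, a marker of cycling cells, had 523, 143, 136 and 159 fragments (0.55, 0.28 to 0.83), and RRM2, a subunit of ribonucleotide reductase, 365, 27, 90 and 170 (0.62, 0.29 to 0.98), neither of them called in the controls and both called higher in NCM460 in the SCS libraries (-1.29 and -3.66). SMC4, a condensin subunit, had 148, 108, 8 and 54 (2.67, 1.80 to 4.05) but missed the call once the GC trend was subtracted (0.87). RFC3, a clamp loader subunit, had 50, 15, 1 and 17 (3.33, 1.71 to 9.58) and was called higher in NCM460 in the SCS libraries (-1.18). The licensing factor CDT1 (53, 48, 120 and 103, -2.52, -3.07 to -2.10), the helicase subunit MCM5 (106, 14, 93 and 82, -1.19, -1.62 to -0.79), the condensin subunit NCAPD2 (209, 106, 213 and 204, -1.41, -1.70 to -1.139) and CDC20 (129, 68, 155 and 151, -1.64, -2.01 to -1.31), an activator of the anaphase-promoting complex, were higher in NCM460, though MCM5 was not with the trend subtracted (-0.69). SMC4 was not called in the SCS libraries (-0.15).

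Proteoglycan genes leaned to NCM460, with a median that turned to 0.63 under scaling by total fragments, which put the median of all loci at 1.12. Proteoglycans carry chondroitin and heparan sulfate chains, the class of molecule later given to these cells. Of 40 loci of proteoglycan cores and chondroitin sulfate enzymes, 5 were called higher in HT-29 and 15 in NCM460, and the median log2 fold change was -0.41. The 5 members at 0 in the HT-29 control and the 1 at 0 in the NCM460 control had their direction fixed by the level filter. Calls with the trend subtracted were 9 and 14, at a median of -0.33, and those in the SCS libraries 6 and 17 of 43, at a median of -0.61. AGRN, the heparan sulfate proteoglycan agrin, had 1402, 1426, 123 and 98 fragments (2.11, 1.85 to 2.40). HSPG2, which encodes perlecan, had 696, 309, 140 and 131 (0.92, 0.66 to 1.19) and was called with the trend subtracted (1.93). SDC3, a syndecan, had 3, 6, 103 and 71 (-5.61, -8.80 to -4.91), CHST15, which adds sulfate to chondroitin chains, 0, 0, 38 and 31, at least 33.3-fold higher in NCM460, and CSPG4, a chondroitin sulfate proteoglycan of pericytes and melanoma, 2, 3, 54 and 22 (-4.97, -9.23 to -4.23). SDC3, CHST15, CSPG4 and the phosphatase PTPRS each had 6 fragments or fewer in both HT-29 libraries.

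**Figure D4:**
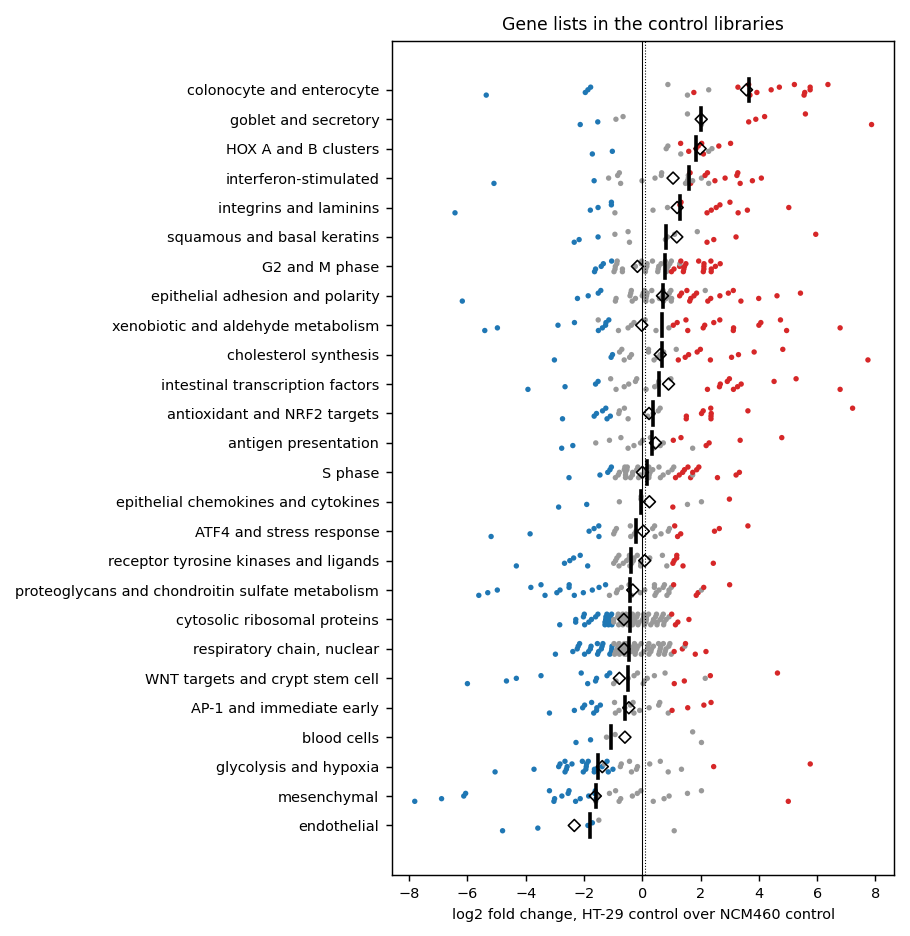
Log2 fold change of HT-29 control over NCM460 control for the members of the gene lists with at least 5 loci compared, 1 point per locus, red where called higher in HT-29, blue where called higher in NCM460 and grey where not called. Bars are list medians, diamonds are medians with the GC trend subtracted, and the dotted line is the median of all loci (0.10). The colonocyte list stands furthest right, and the G2 and M phase diamond lies left of 0 while its bar lies right of it.

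Of 5 abundant non-coding RNAs described here, RN7SK, RN7SL2, RMRP and a pseudogene locus were called higher in NCM460 and MALAT1 in HT-29, and none of the 5 was called with the GC trend subtracted. RN7SK, which restrains transcription elongation, had 51796, 78406, 46453 and 30218 fragments (-1.24, -1.25 to -1.22), and RN7SL2, an RNA of the signal recognition particle with near-identical copies, 11843, 20418, 13672 and 17784 (-1.60, -1.64 to -1.56). RMRP, the RNA of a processing ribonuclease, had 6612, 8602, 5796 and 8616 (-1.20, -1.25 to -1.15), and a locus named CTD-2328D6.1, of the class processed pseudogene, 19177, 29242, 29757 and 36434 (-2.03, -2.05 to -2.001). RN7SK (0.22) and RN7SL2 (-0.95) were not called in the SCS libraries. MALAT1, a nuclear RNA poor in GC, had 8348, 35636, 772 and 5328 fragments and was higher in HT-29 (2.04, 1.94 to 2.15), a value that changed sign with the GC trend subtracted (-0.36). A second locus of that name stood at 2.39 in the controls, where the GC trend was 2.4. By class, protein-coding loci held 86.6% of nuclear fragments in the HT-29 control and 74.8% in the NCM460 control, and processed pseudogenes 1.89% and 5.93%.

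The difference between the lines was not even along the genome. With the GC trend subtracted, 9222 protein-coding loci that averaged 5 CPM or more had a median log2 fold change of -0.05. Chromosome 13 had the highest median, 0.50 over 146 loci, of which 72.6% were above 0, against 0.29 in the SCS libraries. Chromosomes 7, 15, 11 and 20 followed at 0.31, 0.31, 0.31 and 0.30, and had 0.34, 0.36, 0.27 and 0.23 in the SCS libraries. The lowest medians were on chromosome 8, at -0.66 over 306 loci with 32.4% above 0, and chromosome 14, at -0.54 over 291 loci with 29.2% above 0, against -0.62 and -0.56 in the SCS libraries. Chromosome 22 was at -0.40 and -0.49. The control and SCS libraries share no library, so these medians were measured in each pair separately. On every chromosome plotted the range between the quartiles spanned 0. Copy number was not measured.

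**Figure D5:**
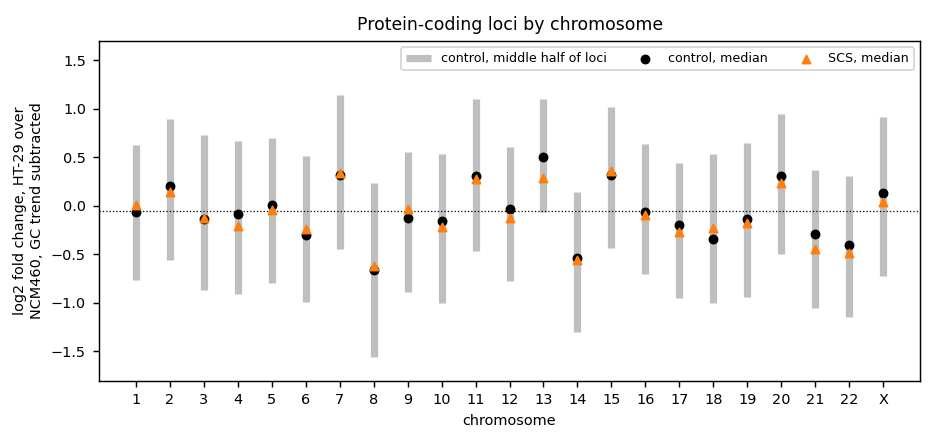
Log2 fold change of HT-29 over NCM460 with the GC trend subtracted, by chromosome, for protein-coding loci that averaged 5 CPM or more in the controls. Black points are medians and grey bars the range between the quartiles in the control libraries, orange triangles are medians in the SCS libraries, and the dotted line is the median of all these loci. Chromosomes 8, 14 and 22 lie lowest and chromosome 13 highest.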

How the data were processed

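RNA was sequenced from HT-29 and NCM460 cells, each untreated and after 24 h with 100 μg/mL SCS, with 1 library per condition. Per the submitters' processing notes, bcl2fastq 2.17.1.14, cutadapt 1.9.1, Bowtie2, HTSeq 0.6.1 and the build hg19 were used, while 91.0% of loci have the start and end of GENCODE release 29 on GRCh38, and the study's methods name Cuffdiff. The authors deposited, for each gene, a signal of fragment counts divided by a library factor, and FPKM. Whole fragments were recovered from the signal (99.94% to 100% of values above 0 lay within 0.1 of a whole number), with 1 fragment worth 0.686, 0.577, 2.04 and 1.33 units. Of 64962 rows, 26 carry no gene name and stayed out (1560, 1491, 544 and 799 fragments), and neighbouring rows with identical values in every column were merged, so 1812 of 18650 loci hold more than 1 gene.

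Counts were scaled by TMM in edgeR 4.0.16 (R 4.3.3), with a prior count of 2 for log2 fold changes, for loci that averaged 1 CPM or more. A call needed a 2-fold difference and a 95% Clopper-Pearson interval that excluded 0. The lowess trend on GC content had a span of 0.3 and was fitted on loci of at least 10 CPM. The design had assumed deposited counts, and the recovered fragments took their place. As alternatives, edgeR's quasi-likelihood test and DESeq2 1.42.0 were fitted to line and treatment over all 4 libraries, and edgeR called 1052 and 1070 loci. The genes named were the 12 with the largest difference in each direction that also passed with the GC trend subtracted, a fixed set of identity genes, and members of each gene list by level and size of difference. Undetected markers, CD68, MUC12, CDH17, PECAM1, MAGEC2, DDX43 and CSAG1 were added with their values in view. The members, gene lists and tests were chosen with earlier results of these data known. Some genes, 1 gene list and 1 motif are not reported here.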

Additional observations from a re-analysis of the deposited data

Results flagged for a closer look

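Differences that changed sides between the control and SCS libraries were not tested, since each condition had 1 library. For G2 and M phase genes the median was 0.79 in the control libraries and -1.17 in the SCS libraries. LGR4 had 33 fragments in HT-29 and 4 in NCM460 among the controls, and 21 and 37 with SCS, where its log2 fold change was -1.83. RFC3 had 50 and 1 in the controls and 15 and 17 with SCS, with -1.18 there. Rows with no gene name held 1560 fragments in the HT-29 control and 544 in the NCM460 control, more than the 3 that a count of 0 allows.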

How the results depend on the processing

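No paired analysis was possible because the labels carry no replicate numbers and each condition had 1 library, so no library could be left out either. The cause of the following changes was not tested. Loci higher in HT-29, 2846 as reported, numbered 5785 with scaling by total fragments, 1638 with the GC trend subtracted, 4397 with the expression trend subtracted, 1052 in the edgeR fit and 323 in the DESeq2 fit. Loci higher in NCM460, 2466 as reported, numbered 926 with total fragments, 4585 with the deposited FPKM, 1070 in edgeR and 527 in DESeq2. The unadjusted p was below 0.05 for 3714 loci in edgeR and 2059 in DESeq2, whose adjusted p was NA for 2215. The share of calls in favour of HT-29 was 53.6%, against 86.2% with total fragments, 69.0% with the expression trend subtracted, 43.0% with the GC trend subtracted, 36.6% with FPKM and 38.0% in DESeq2. The median of all loci moved by 1.02, 0.68, -0.22 and -0.52 under the first 4 of these.

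The colonocyte median was 5.75 with the expression trend subtracted, and the epithelial adhesion median 1.78 with total fragments. The mesenchymal median was -0.66 with total fragments and 0.17 with the expression trend subtracted. Among other values, signs turned with total fragments for receptor tyrosine kinases (0.64), ribosomal proteins (0.66), the respiratory chain (0.60) and ERBB3 (1.05). They also turned there for the WNT, immediate early and proteoglycan lists, and the median of all loci stood at 1.12. They turned with the GC trend subtracted for receptor tyrosine kinases (0.084), G2 and M phase (-0.17), EREG (-0.51) and MALAT1 (-0.36). With the expression trend subtracted they turned for ribosomal proteins (0.011), VIM (0.93), MT-ND1 (0.35) and RN7SK (0.41). FPKM turned G2 and M phase (-0.33). In the SCS libraries they turned for G2 and M phase (-1.17, and -1.38 with the GC trend subtracted, an alternative chosen after seeing the data), MUC1 (0.10), CLDN2 (-0.57), LGR4 (-1.83), GDF15 (0.71), RRM2 (-3.66), RFC3 (-1.18), MKI67 (-1.29), SMC4 (-0.15), FOSB (-0.38) and RN7SK (0.22). LGR4 was -0.44 in edgeR and -0.33 in DESeq2. Of 144 named genes, 49 lost their call in DESeq2, 22 with total fragments, 17 in edgeR, 13 in the SCS libraries and 12 with the GC trend subtracted, without a change of sign. A prior count of 0.5 and no filter on low counts changed no call of a named gene. The depth of the NCM460 control limits what can be seen below 3.85 CPM.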
